A study of Mus musculus with 6 samples.

Results

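Genes of the ephrin, Slit-Robo and netrin guidance systems were examined in 4T1 cells, a mouse mammary carcinoma line. They were chosen by symbol and included the Eph receptors and ephrins, the Slits and Robos, the netrins, the Unc5 receptors, Dcc and Neo1. The rule matched 36 genes among 31854 rows of the count table. Unc5c had 2 rows, of which the one with the higher mean was kept. In the first group, cells carried the plasmid pLVX-LINC01133, which expresses a human long noncoding RNA (3 libraries, genotype LINC01133 overexpression). They are called LINC01133 cells here. In the second group, cells carried pLVX without an insert (3 libraries, genotype WT), and they are called control cells. Both groups thus carried the vector, and both were grown in DMEM with 10% fetal bovine serum. The promoter in the vector, clonality, and whether the groups share parental cells or the samples come from separate cultures are not given in the labels. The p-values therefore cover the spread between the 3 libraries of a group, which may be technical. The introduced RNA was not analysed here, so nothing in the counts checks the group labels.

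Eph receptors are receptor tyrosine kinases that bind ephrins on neighbouring cells. A-type receptors mainly bind ephrin-A ligands, which are tethered to the membrane by a lipid anchor, and B-type receptors mainly bind ephrin-B ligands, which span the membrane, so that signals can run into both cells at a contact. Slits are secreted ligands of Robo receptors. Netrins are laminin-related secreted proteins, and netrin-1 binds Dcc, its relative neogenin (Neo1) and the Unc5 receptors. All are best known for steering axons. In the mouse mammary gland, Slit2 with Robo1 and netrin-1 with neogenin help to hold the layers of the growing duct together, and EPHA2 and EPHB4 are known from human breast tumours.

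Total counts lay between 26719396 and 33877549 in the LINC01133 libraries and between 25521469 and 27035127 in the control libraries. Levels are given as CPM, counts scaled to a common library size by TMM, and 3 counts were worth 0.0827 to 0.128 CPM. The ribosomal RNA precursor Rn45s took 21% to 23% of LINC01133 counts and 25.4% to 27.9% of control counts. The 36 guidance genes together took 0.179% to 0.181% of LINC01133 counts and 0.14% to 0.143% of control counts. Of 10 epithelial markers, 8 were tested. Of these, 6 were higher with LINC01133 and 2, Krt5 and Krt14, lower, beside 44.5% and 40.5% of all genes tested. The 10 markers summed to 383 to 391 CPM in the LINC01133 libraries and 148 to 156 CPM in the control libraries. Krt8, a keratin of simple epithelia, stood at 217 ± 3.02 CPM in LINC01133 cells, against 145 ± 3.81 CPM in control cells, and Krt18, its partner keratin, at 158 ± 4.44 CPM in LINC01133 cells, against 2.06 ± 0.213 CPM in control cells. Epcam had 78 counts over the 3 LINC01133 libraries and none over the 3 control libraries. Cdh1 had 138 counts over the LINC01133 libraries and 4 over the control libraries. Those 2 defining markers of epithelium were thus absent or nearly so from the control cells. They were low in LINC01133 cells too, with means of 0.793 CPM for Epcam and 1.39 CPM for Cdh1. The part of these markers in the results was not tested.

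Of the 36 guidance genes, 24 had enough counts to be tested, and 15 were called higher and 8 lower with LINC01133 (edgeR's quasi-likelihood test, Benjamini-Hochberg adjusted p under 0.05 over 14116 genes). Among all genes tested, 84.9% were called, 44.5% higher and 40.5% lower, so a call alone sets no gene apart. A difference of at least 2-fold was called in 10 higher and 7 lower guidance genes, beside 20.3% and 13.9% of all genes tested. At least 8-fold differences were found in 4 higher and 5 lower guidance genes, beside 9.94% and 3.43%. The groups did not overlap in 22 of the 24 genes, beside 85% of all genes. The median log2 fold change was 0.55, against 0.05 over all genes tested, and the same with genes at 0 in one group set to their bound. In 6 of the 24 genes only the LINC01133 libraries, and in 3 only the control libraries, all reached the count minimum, so these counts and the median describe the tested genes and support nothing further. Counts of tested marker and partner genes have the same limit. Scaled by library size alone, the median of all genes moved by 0.24 on the log2 scale and 64.9% of all calls were higher, against 52.4% by TMM. In bulk RNA, fewer cells of a type and less RNA per cell cannot be told apart.

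**Figure D1:**
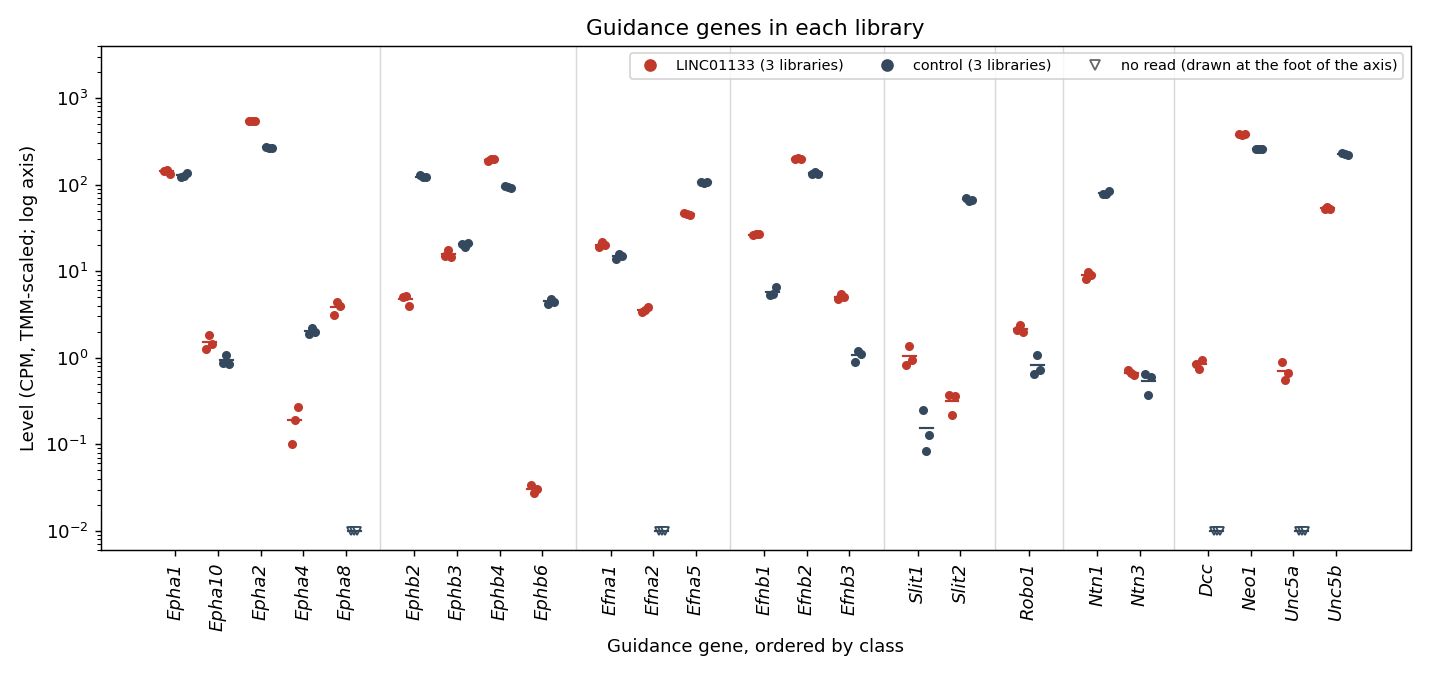
Levels of the 24 tested guidance genes in CPM on a log axis, grouped by class, with 3 LINC01133 libraries to the left of 3 control libraries for each gene. Points are libraries, short lines are means, and open triangles mark libraries with no read. Slit2 and Ephb6 stand far lower with LINC01133, and Epha8, Efna2, Dcc and Unc5a have no read in any control library.

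The promoter sequences of 4 genes are shown, chosen after their values were seen. Slit2 and Ephb2 were far lower in LINC01133 cells than in control cells, and Epha8 and Efna2 had reads only in LINC01133 cells. Each window runs from upstream of the gene start to shortly after it, with starts from RefSeq on GRCm38.p6, 5′ to 3′ on the gene's strand. Capitals mark matches on either strand to GGGCGG (the core of an SP1 site), CACCTG (an E-box), TGANTCA (the AP-1 motif) and TATAAA (the TATA box). Matches to GGGCGG within a run of Gs and Cs may overlap one another. The windows lie at chr5:47982905-47983204 (+ strand), chr4:136835963-136836262 (- strand), chr4:136956767-136957066 (- strand) and chr10:80179232-80179531 (+ strand).
Slit2: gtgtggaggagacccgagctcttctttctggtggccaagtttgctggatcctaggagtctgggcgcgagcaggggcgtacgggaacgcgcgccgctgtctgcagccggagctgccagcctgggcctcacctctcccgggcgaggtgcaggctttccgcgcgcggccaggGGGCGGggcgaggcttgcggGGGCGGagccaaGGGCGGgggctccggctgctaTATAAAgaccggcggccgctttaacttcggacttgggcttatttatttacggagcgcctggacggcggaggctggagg
Ephb2: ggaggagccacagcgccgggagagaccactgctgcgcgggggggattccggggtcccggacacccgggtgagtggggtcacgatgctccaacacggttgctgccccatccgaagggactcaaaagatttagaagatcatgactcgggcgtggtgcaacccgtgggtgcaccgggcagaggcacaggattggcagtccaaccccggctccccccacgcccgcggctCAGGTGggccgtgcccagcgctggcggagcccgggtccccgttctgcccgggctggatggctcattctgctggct
Epha8: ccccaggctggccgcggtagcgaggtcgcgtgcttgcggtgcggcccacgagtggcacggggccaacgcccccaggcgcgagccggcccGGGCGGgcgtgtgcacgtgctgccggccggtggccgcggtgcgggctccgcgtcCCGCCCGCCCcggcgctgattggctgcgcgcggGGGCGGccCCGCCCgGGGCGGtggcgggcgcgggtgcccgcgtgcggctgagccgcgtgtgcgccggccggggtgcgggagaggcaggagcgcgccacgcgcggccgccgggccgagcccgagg
Efna2: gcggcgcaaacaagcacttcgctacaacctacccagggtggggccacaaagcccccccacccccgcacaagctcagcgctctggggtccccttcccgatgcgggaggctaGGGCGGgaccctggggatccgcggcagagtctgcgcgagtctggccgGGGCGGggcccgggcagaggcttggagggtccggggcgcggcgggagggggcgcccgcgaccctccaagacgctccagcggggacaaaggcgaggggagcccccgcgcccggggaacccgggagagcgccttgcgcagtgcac

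The windows of Slit2, Epha8 and Efna2 held 3, 6 and 2 matches to GGGCGG and that of Ephb2 none. Slit2 had a TATAAA match, and Ephb2 a CACCTG match. They contained 30 CpG dinucleotides in Slit2, 24 in Ephb2, 56 in Epha8 and 31 in Efna2, against a median of 7 over 32851 windows of all genes. RefSeq windows were found for 31 of the 36 guidance genes, 35 windows in all, with a median of 21 CpG (range 2 in Robo4 to 56 in Epha8). The windows of Robo1 (354843 bases) and some of Robo2 (680945 and 1035468 bases) lay far from the GENCODE gene start. The guidance gene windows had a median GC content of 65.3%, against 52.7% over all windows. GGGCGG, made of G and C alone, was found in 71.4% of the guidance gene windows, against 35.7% of all windows. CACCTG was found in 14.3% of them against 20.2%, and TATAAA in 5.71% against 13.6%. TGANTCA was found in none of them and in 7.81% of all windows. GGGCGG stood in 11 of 13 windows of genes called higher, in 6 of 7 of genes called lower and in 7 of 14 of untested genes. These matches describe the letters of the windows and were not tested as binding sites.

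Among the Eph A receptors, Epha2 dominated in both groups and stood about 2-fold higher with LINC01133. Epha2 stood at 539, 548 and 541 CPM in the LINC01133 libraries, against 275, 263 and 267 CPM in the control libraries (log2 fold change 1.01, SE 0.0226, edgeR adjusted p = 1.2e-79; uc008voc.2, chromosome 4, 141301240 to 141329384 on mm10). The libraries of each group lay close together and the groups did not overlap. Its size sat at the 2-fold mark, and without control replicate 2 the log2 fold change was 0.99. Epha1, an epithelial Eph receptor, had 145, 148 and 133 CPM with LINC01133, against 123, 124 and 135 CPM in control cells. It was called higher (log2 fold change 0.16, SE 0.032, edgeR adjusted p = 1e-05), but its lowest LINC01133 library lay below the highest control library. Its exons share 236 bases with the oppositely oriented Zyx gene, and the counts do not tell which gene such reads came from.

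Epha8 had no read in any control library and 92, 158 and 132 counts in the LINC01133 libraries, or 3.12, 4.35 and 3.99 CPM. It was at least 92.6-fold higher than a floor of 3 counts over the 3 control libraries (edgeR adjusted p = 2.4e-34; uc008vis.1, chromosome 4, 136929419 to 136956816). Epha4, which binds both ephrin types, went the other way. Epha4 stood at 0.102, 0.193 and 0.272 CPM in the LINC01133 libraries, against 1.88, 2.21 and 2.0 CPM in the control libraries, 10.4-fold lower (log2 fold change -3.37, SE 0.331, edgeR adjusted p = 7.1e-18; uc007bpz.1, chromosome 1, 77367185 to 77515088). The groups were apart for both genes, and both were rare, at most 0.811 RPKM (CPM per kilobase of the deposited gene length). Epha10, a receptor without kinase activity, stood at 1.51 ± 0.286 CPM in LINC01133 cells, against 0.932 ± 0.13 CPM in control cells (log2 fold change 0.70, SE 0.257, edgeR adjusted p = 0.0087). Its call was lost without LINC01133 replicate 2 (edgeR adjusted p = 0.081; range 0.0004 to 0.081 over 17 alternatives).

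The Eph B receptors diverged. Ephb2 was 26.1-fold lower and Ephb6 had only a few reads with LINC01133, while Ephb4 stood about 2-fold higher. Ephb2 stood at 5.09, 5.18 and 3.93 CPM in the LINC01133 libraries, against 128, 121 and 121 CPM in the control libraries (log2 fold change -4.70, SE 0.0568, edgeR adjusted p = 2.6e-110; uc008vim.3, chromosome 4, 136647539 to 136835988). Every LINC01133 library was more than an order of magnitude below every control library. Ephb4 stood at 189, 198 and 195 CPM in the LINC01133 libraries, against 96.5, 92.7 and 92.5 CPM in the control libraries (log2 fold change 1.05, SE 0.0293, edgeR adjusted p = 5.4e-68; uc009ach.2, chromosome 5, 137350109 to 137378669), with no overlap. Ephb6, whose kinase domain is inactive, had 1 count in each LINC01133 library, against 103, 115 and 104 counts in the control libraries. The ratio of control to LINC01133 level was 148 (95% exact interval 50.1 to 719, counting error only; edgeR adjusted p = 7.3e-39; uc009bqa.2, chromosome 6, 41605482 to 41620509). Ephb3 was slightly lower, at 15.7 ± 1.62 CPM in LINC01133 cells, against 20.5 ± 1.11 CPM in control cells (log2 fold change -0.37, SE 0.0699, edgeR adjusted p = 5.9e-07), and that call was lost with library size alone (edgeR adjusted p = 0.077; range 4.9e-08 to 0.077 over 17 alternatives).

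Ephb2 and Epha8 lie on the same strand of chromosome 4, 93.4 kb apart, and they differed between the groups in opposite directions. Other genes between them were not looked for. Per length, Ephb2 stood at 0.379 RPKM in LINC01133 cells and 9.88 RPKM in control cells, and Epha8 at 0.811 RPKM in LINC01133 cells with no read in control cells.

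Among the ephrin A ligands, Efna5 was lower and Efna1 higher with LINC01133. Efna5 stood at 46.5, 45.9 and 44.5 CPM in the LINC01133 libraries, against 107, 105 and 107 CPM in the control libraries, 2.33-fold lower (log2 fold change -1.22, SE 0.0366, edgeR adjusted p = 1.8e-64; uc008dfg.2, chromosome 17, 62604184 to 62881317). Efna1 stood at 19.2, 21.4 and 19.9 CPM in the LINC01133 libraries, against 13.9, 15.8 and 14.8 CPM in the control libraries (log2 fold change 0.45, SE 0.0702, edgeR adjusted p = 5.9e-09). Neither ligand overlapped between groups. Under library size alone the log2 fold change of Efna5 was -0.98, short of the 2-fold mark. Per length, Efna1 exceeded Efna5 in LINC01133 cells (12.3 and 8.68 RPKM), while Efna5 exceeded Efna1 in control cells (20.2 and 9.04 RPKM). Efna2 had 99, 129 and 126 counts in the LINC01133 libraries, or 3.36, 3.56 and 3.81 CPM, and no read in the control libraries. On the same floor it was at least 85.8-fold higher (edgeR adjusted p = 2.5e-33; uc007gcg.2, chromosome 10, 80179482 to 80190010).

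All 3 ephrin B ligands were higher with LINC01133, beside 44.5% of all genes. Efnb2, a ligand of Ephb4 and the most abundant ephrin per length in both groups, differed least. Efnb2 stood at 199.6, 201 and 195 CPM in the LINC01133 libraries, against 132, 139.7 and 132 CPM in the control libraries, 1.47-fold higher (log2 fold change 0.56, SE 0.0275, edgeR adjusted p = 1.5e-41; uc009kue.1, chromosome 8, 8617434 to 8661242). Efnb1 stood at 26, 26.7 and 26.7 CPM in the LINC01133 libraries, against 5.24, 5.49 and 6.57 CPM in the control libraries, 4.6-fold higher (log2 fold change 2.20, SE 0.0815, edgeR adjusted p = 3.7e-54; uc009tvi.2, chromosome X, 99136130 to 99148991). Efnb3 stood at 4.79, 5.51 and 4.98 CPM in the LINC01133 libraries, against 0.901, 1.21 and 1.11 CPM in the control libraries, 4.75-fold higher (log2 fold change 2.25, SE 0.18, edgeR adjusted p = 1.7e-23; uc007jqi.2, chromosome 11, 69554092 to 69560205). For each of the 3 ligands, every LINC01133 library lay above every control library. Efnb2 and Ephb4 are also known from blood vessels. Of 9 endothelial markers, 3 of 3 tested were higher, beside 44.5% of all genes. In those 3 no control library reached the count minimum, so that count supports nothing further. The markers summed to 16.3 to 17.8 CPM in the LINC01133 libraries and 0.416 to 1.15 CPM in the control libraries, led by Egfl7 and Pecam1. The defining endothelial cadherin Cdh5 had 1 count over the LINC01133 libraries and none over the control libraries, and Emcn had 3 counts with LINC01133 and 1 in control cells. Their part in the result was not tested.

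**Figure D2:**
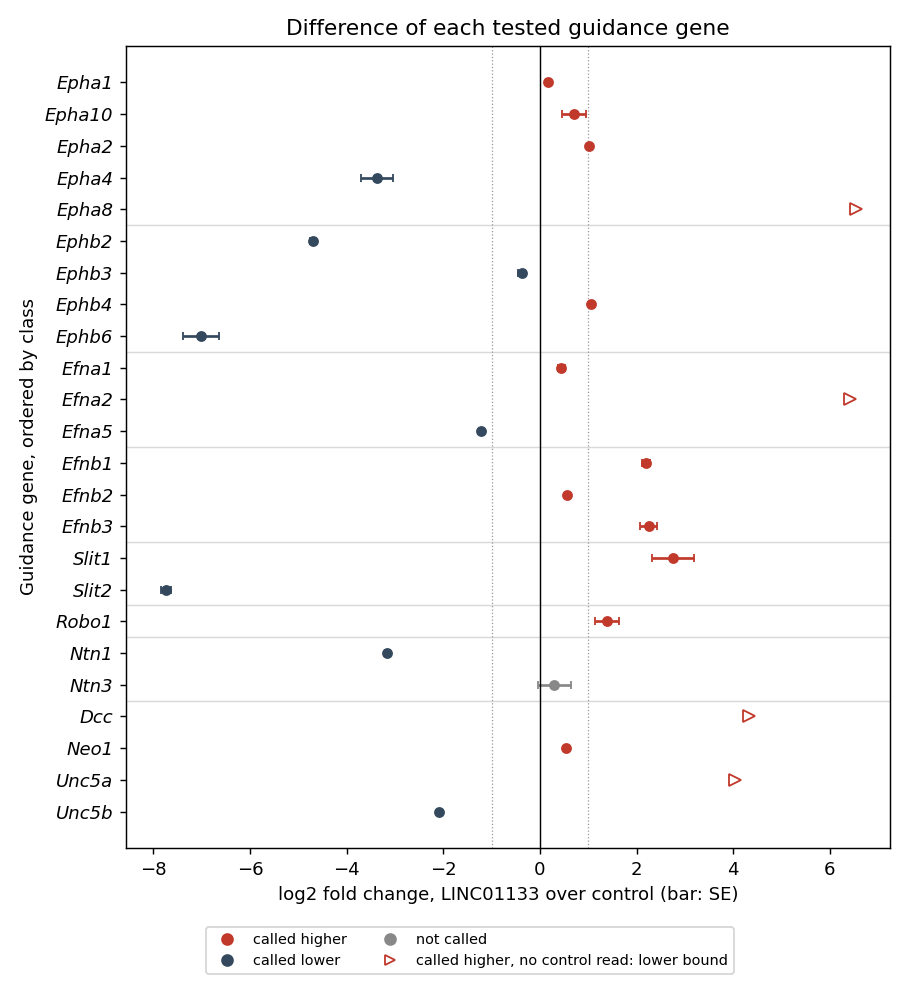
Log2 fold change of LINC01133 over control for the 24 tested guidance genes, with bars for the SE. Open triangles are lower bounds for genes with no control read (floor of 3 counts in all), and dotted lines mark a 2-fold difference. The Slit2, Ephb6, Ephb2, Epha4 and Ntn1 points lie at or beyond 8-fold lower.

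Summed per length, Eph A receptors reached 157 ± 2.04 RPKM in LINC01133 cells, against 85.1 ± 1.42 RPKM in control cells, and Eph B receptors 47.4 ± 1.35 RPKM in LINC01133 cells, against 35.9 ± 0.835 RPKM in control cells (SD, n = 3). Ephrin B ligands reached 55.4 ± 0.739 RPKM in LINC01133 cells, against 33.2 ± 1.05 RPKM in control cells, and ephrin A ligands 22.6 ± 0.713 RPKM in LINC01133 cells, against 29.3 ± 0.424 RPKM in control cells. In these 4 classes the groups did not overlap (exact two-sided permutation p = 0.1 for each, the smallest that 3 against 3 libraries allow). The make-up of the classes also differed. Of the Eph A sum, Epha2 made up 87.7% ± 0.505 in LINC01133 cells and 80.3% ± 0.946 in control cells. Of the Eph B sum, Ephb4 made up 93.8% ± 0.514 in LINC01133 cells and 59.9% ± 0.261 in control cells. Ephb2, the second Eph B gene of control cells, made up 0.80% ± 0.12 in LINC01133 cells and 27.5% ± 0.272 in control cells, so that Ephb4 stood nearly alone with LINC01133. Of the ephrin A sum, Efna1 made up 54.2% ± 1.4 in LINC01133 cells and 30.9% ± 1.48 in control cells. Of the ephrin B sum, Efnb2 made up 82.9% ± 0.401 in LINC01133 cells and 93.8% ± 0.704 in control cells.

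**Figure D3:**
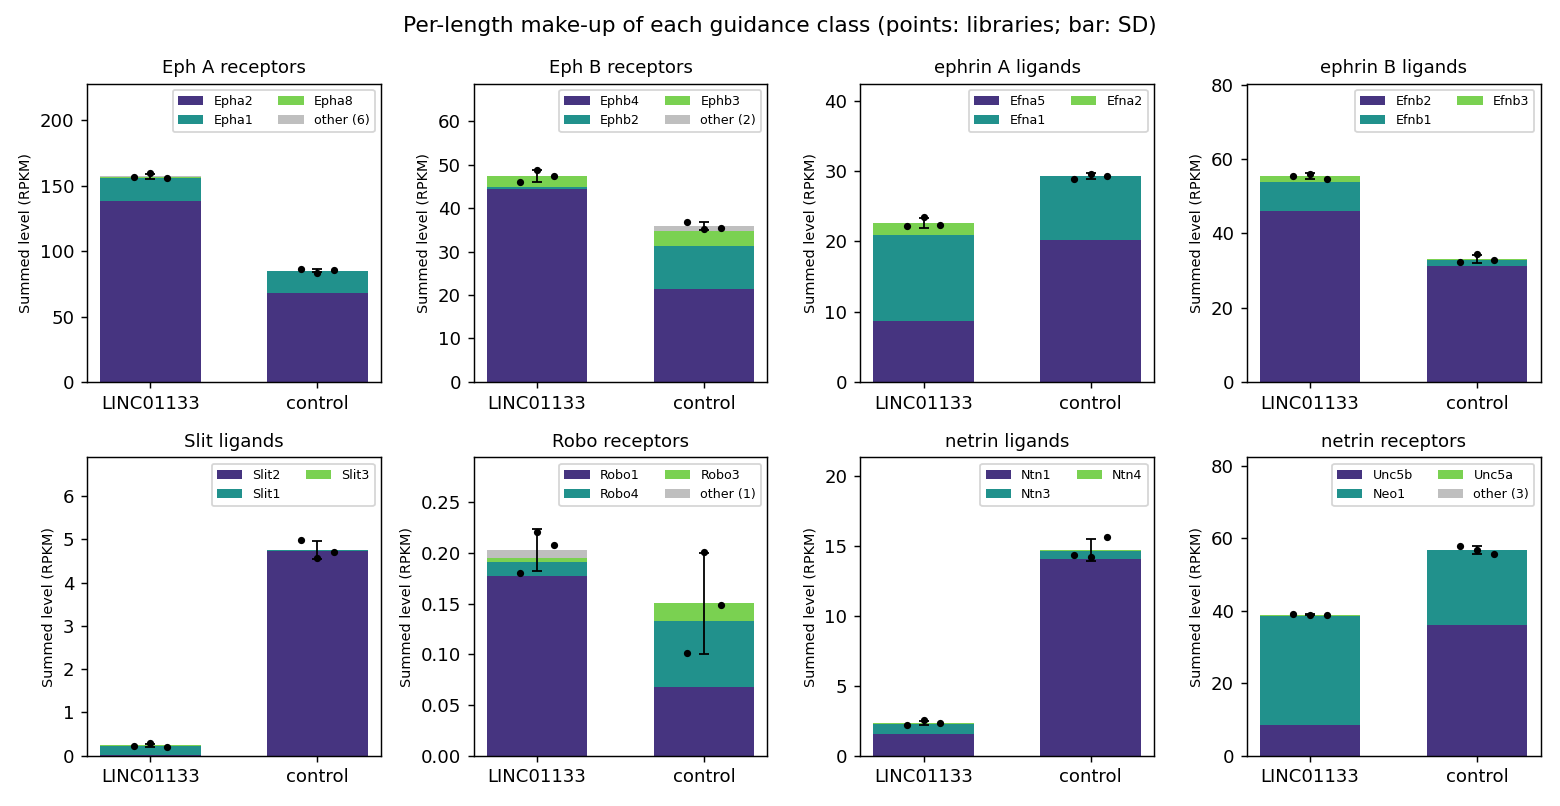
Summed level per class in RPKM, LINC01133 left of control, stacked by the 3 most abundant genes of the class and the rest. Points are the sums of the 3 libraries and bars their SD. Ephb4 fills most of the Eph B bar with LINC01133, Slit2 nearly all of the Slit bar in control cells, and Neo1 most of the netrin receptor bar with LINC01133.

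Slit2, a secreted guidance ligand, had the largest fitted difference of the tested guidance genes called lower, though the interval of the Ephb6 ratio includes its size. It had 11, 8 and 12 counts in the LINC01133 libraries, against 1727, 1574 and 1576 counts in the control libraries. Slit2 stood at 0.373, 0.22 and 0.362 CPM in the LINC01133 libraries, against 70.7, 65.5 and 67.2 CPM in the control libraries, 213-fold lower (log2 fold change -7.74, SE 0.108, edgeR adjusted p = 3.3e-104; uc012dwb.3, chromosome 5, 47983138 to 48307733). Slit1 was higher but rare, at 1.04 ± 0.296 CPM in LINC01133 cells, against 0.152 ± 0.084 CPM in control cells (log2 fold change 2.75, SE 0.427, edgeR adjusted p = 3.5e-09), and Slit3 had 7, 1 and 0 counts in the LINC01133 libraries and none in control libraries. The Slit sum was 0.239 ± 0.0409 RPKM in LINC01133 cells, against 4.75 ± 0.202 RPKM in control cells, a control level 19.9 times the LINC01133 level (exact two-sided permutation p = 0.1, n = 3 each). The Robo receptors were low throughout. Robo1 stood at 2.07, 2.37 and 1.99 CPM in the LINC01133 libraries, against 0.655, 1.08 and 0.725 CPM in the control libraries, 2.61-fold higher (log2 fold change 1.39, SE 0.245, edgeR adjusted p = 1.5e-07; uc007zrb.1, chromosome 16, 72308306 to 73046095), and the groups did not overlap. Robo2 had 10 counts over the LINC01133 libraries and none over the control libraries. Robo3 had 2 counts with LINC01133 and 7 in control cells, and Robo4, known from blood vessels, 6 with LINC01133 and 19 in control cells, too few to be tested. The Robo sum was 0.203 ± 0.0209 RPKM in LINC01133 cells, against 0.15 ± 0.0497 RPKM in control cells, with overlapping groups (exact two-sided permutation p = 0.2, n = 3 each).

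Netrin-1 and the receptor Unc5b were lower with LINC01133, and neogenin was higher. Ntn1 stood at 8.18, 9.76 and 9.09 CPM in the LINC01133 libraries, against 77.9, 78.8 and 85.3 CPM in the control libraries, 8.9-fold lower (log2 fold change -3.15, SE 0.0561, edgeR adjusted p = 2.5e-91; uc007jnm.1, chromosome 11, 68209364 to 68400823). Unc5b stood at 52.7, 55.6 and 52.3 CPM in the LINC01133 libraries, against 234, 225 and 221 CPM in the control libraries, 4.22-fold lower (log2 fold change -2.08, SE 0.031, edgeR adjusted p = 1.1e-100; uc007ffe.1, chromosome 10, 60762593 to 60831581). Neo1 stood at 379.8, 372 and 381 CPM in the LINC01133 libraries, against 259, 259.7 and 257 CPM in the control libraries, 1.46-fold higher (log2 fold change 0.55, SE 0.023, edgeR adjusted p = 3.7e-48; uc009pxk.1, chromosome 9, 58874687 to 59036441). The groups were apart for all 3 genes. Ntn3 was not called, at 0.67 ± 0.040 CPM in LINC01133 cells, against 0.542 ± 0.148 CPM in control cells (log2 fold change 0.30, SE 0.347, edgeR adjusted p = 0.42; range of p 0.14 to 0.84); its exons share bases with the oppositely oriented BC028777 gene and with Tbc1d24. Ntn4, a netrin that binds laminin, had 27 counts over the LINC01133 libraries and 19 over the control libraries and was not tested. The netrin sum was 2.34 ± 0.171 RPKM in LINC01133 cells, against 14.7 ± 0.791 RPKM in control cells (exact two-sided permutation p = 0.1, n = 3 each).

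Among the netrin receptors, Dcc and Unc5a had reads only in LINC01133 cells, at low levels. Dcc, a receptor best known from neurons, had 25, 27 and 31 counts in the LINC01133 libraries and no read in control libraries, at least 20.1-fold higher (edgeR adjusted p = 5e-13). Unc5a had 26, 20 and 22 counts and no read in control libraries, at least 16.5-fold higher (edgeR adjusted p = 2.8e-11); a few of its exonic bases overlap Hk3 on the other strand. Neither passed 1 CPM in any library, and per length Dcc stood at 0.0591 RPKM and Unc5a at 0.175 RPKM in LINC01133 cells. Of 7 tested neural markers, 5 were higher and 1 lower, beside 44.5% and 40.5% of all genes. The lower one was the neuronal marker Tubb3, at 6.46 ± 0.371 CPM in LINC01133 cells, against 8.19 ± 0.507 CPM in control cells. The neural markers summed to 46.1 to 47.2 CPM in the LINC01133 libraries and 9.74 to 11.4 CPM in the control libraries. Map2 led with LINC01133, at 28.1 ± 1.15 CPM. The neuronal marker Rbfox3 had 68 counts with LINC01133 and none in control cells, and Snap25 3 with LINC01133 and 1 in control cells. Their part in the result was not tested. Unc5c and Unc5d had 13 and 1 counts over the LINC01133 libraries, against 1 and 0 over the control libraries.

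The receptors summed to 38.9 ± 0.12 RPKM in LINC01133 cells, against 56.8 ± 1.1 RPKM in control cells (exact two-sided permutation p = 0.1, n = 3 each). Neo1 made up 77.4% ± 0.726 in LINC01133 cells and 36.3% ± 0.616 in control cells of that sum, and Unc5b 22% ± 0.818 in LINC01133 cells and 63.7% ± 0.619 in control cells. Neo1 was thus the more abundant of the 2 per length in LINC01133 cells and Unc5b in control cells. Fibroblast markers differed too: 3 of 4 tested were lower and 1 higher, beside 40.5% and 44.5% of all genes. They summed to 19.4 to 20.1 CPM in the LINC01133 libraries and 169 to 175 CPM in the control libraries, led in control cells by Pdgfrb and Pdgfra. The matrix genes among them were mixed. Dcn, the higher one, had 409 counts over the LINC01133 libraries and 1 over the control libraries, while Col1a1, called lower, had 109 over the LINC01133 libraries and 284 over the control libraries. Col1a2, not tested, had 3 with LINC01133 and 43 in control cells. Lum had no read in any library, and Col3a1 and Thy1 none in the control libraries. Leukocyte markers summed to 18.1 to 19 CPM in the LINC01133 libraries and 3.8 to 4.2 CPM in the control libraries. Of these markers, 3 of 3 tested were higher, beside 44.5% of all genes, and Adgre1 and Cd3e had no control read. The part of either list in the guidance gene results was not tested.

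In all, 12 guidance genes were too rare to be tested. Beside Slit3, Robo2, Robo3, Robo4, Ntn4, Unc5c and Unc5d, these were Epha3, Epha5, Epha6, Epha7 and Ephb1. Those 5 Eph receptors had between 0 and 3 counts over the 3 LINC01133 libraries and between 1 and 10 over the 3 control libraries. Epha6, chosen after its values were seen, had 1, 0 and 2 counts in the LINC01133 libraries, against 3, 3 and 4 in the control libraries. Its ratio of control to LINC01133 level was 4.58 (95% exact interval 1.18 to 25.9, counting error only). Unc5c went the other way, with a ratio of LINC01133 to control level of 9.45 (95% exact interval 1.42 to 402). The groups did not overlap in Epha6 or Unc5c, nor in the untested Ephb1, Robo2, Robo3 and Robo4. Exons of Epha6 share 107 bases with the oppositely oriented Gm9017 gene, and those of Unc5c 118 bases with Gm15688, also on the other strand.

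Partners that carry the signals of these receptors were counted from lists written with earlier results of these data known. Of 20 tested Eph and ephrin partners, 11 were higher and 7 lower (median log2 fold change 0.29, against 0.05 over all genes), beside 44.5% and 40.5% of all genes. Scaled by library size alone, 15 were higher and 3 lower. The kinase Src, which acts downstream of Eph receptors, stood at 222 ± 7.43 CPM in LINC01133 cells, against 94.5 ± 4.07 CPM in control cells (log2 fold change 1.23), and the adaptor gene Nck2 and the kinase gene Abl2 were also higher (1.32 and 0.56). Rasa1, the Ras-inactivating protein that binds active Ephb2, stood at 68.2 ± 0.765 CPM in LINC01133 cells, against 144 ± 4.33 CPM in control cells (log2 fold change -1.08). Fyn and Abl1 were lower as well (-0.89 and -0.28). Arhgef15, whose product is known to bind Ephb2, was chosen after its values were seen. It had 496 counts over the LINC01133 libraries and 2 over the control libraries, a ratio of 180.4 (95% exact interval 49.7 to 1493).

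Of 16 tested Slit-Robo partners, 2 were higher and 12 lower (median log2 fold change -0.46, against 0.05 over all genes), beside 44.5% and 40.5% of all genes. At least 2-fold lower were 6, beside 13.9% of all genes. Scaled by library size alone, 4 were higher and 9 lower. Evl and Enah belong to the Ena/VASP family, which lengthens actin filaments and binds Robo. Evl stood at 0.20 ± 0.0423 CPM in LINC01133 cells, against 43.1 ± 2.66 CPM in control cells (log2 fold change -7.70), and Enah at 94.2 ± 2.33 CPM in LINC01133 cells, against 193 ± 2.71 CPM in control cells (log2 fold change -1.04). Dock1, an activator of Rac, was lower (-2.06). The secreted protease gene Bmp1 and Arhgap39 were higher (2.01 and 0.63). Nck1 and Srgap1 were not called.

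Of 18 tested netrin partners, 7 were higher and 7 lower (median log2 fold change 0.09), beside 44.5% and 40.5% of all genes. Under library size alone, 10 were higher and 5 lower. Flrt3 and Flrt1, membrane proteins that bind Unc5 receptors, were higher (1.36 and 2.70), as was Rac1 (0.37). Dock1, in this list too, the actin-binding gene Ablim1 and the Dcc-binding adaptor gene Appl1 were lower (-2.06, -3.03 and -0.85). Among 7 tested relatives that the symbol rule left out, 5 were higher and 2 lower (median log2 fold change 0.25), beside 44.5% and 40.5% of all genes. They include Flrt1 and Flrt3 again. Ntng2, a membrane-anchored netrin relative, stood at 8.62 ± 0.836 CPM in LINC01133 cells, against 0.0687 ± 0.0627 CPM in control cells (log2 fold change 6.87). Lrrc4 and Lrrc4b, synaptic adhesion genes of the netrin-G ligand family, were lower (-1.20 and -3.61).

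**Figure D4:**
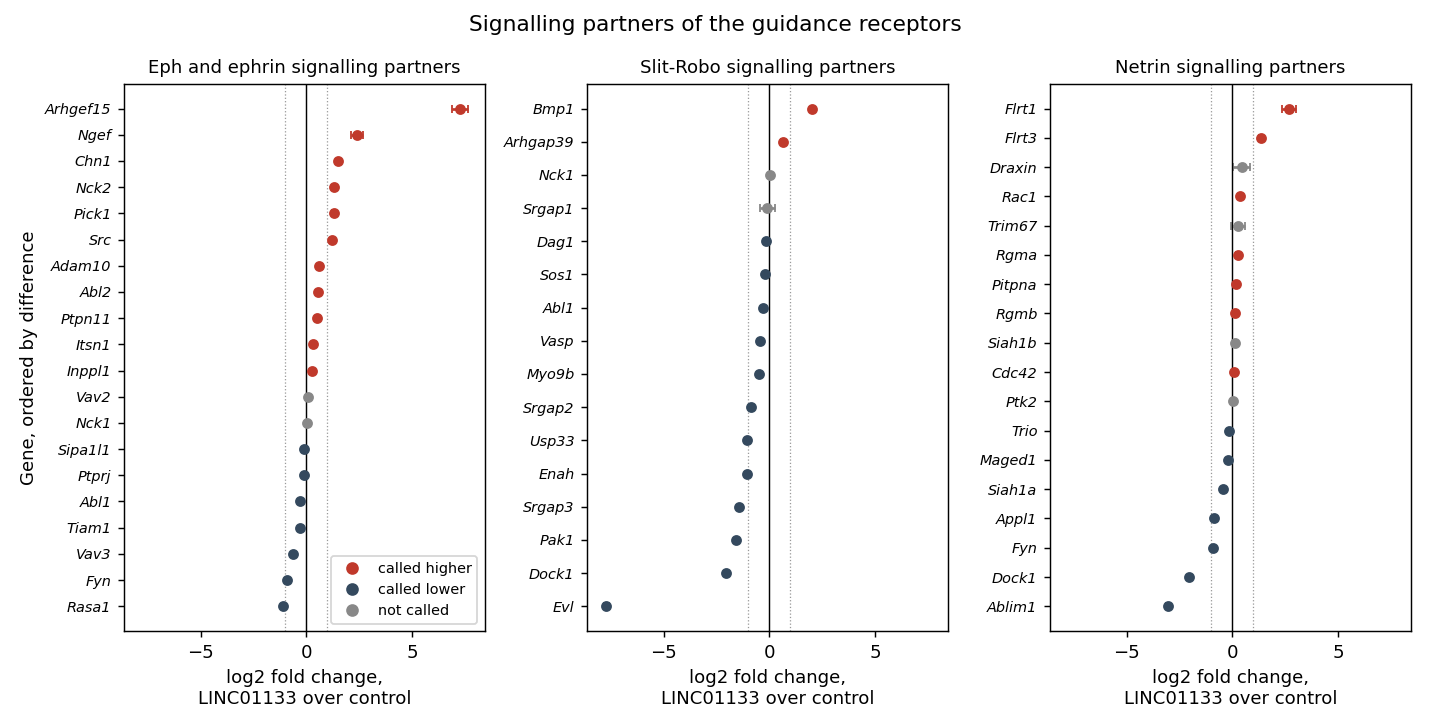
Log2 fold change of LINC01133 over control for tested signalling partners in 3 lists, each ordered by its difference, with bars for the SE. Dotted lines mark a 2-fold difference. Evl is the lowest Slit-Robo partner, and Arhgef15, with 2 counts over the control libraries, the highest Eph partner.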

How the data were processed

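RNA-seq counts of 6 libraries of 4T1 cells were analysed. Per the labels' protocols, 100 ng of total RNA went into each Illumina TruSeq library. The authors deposited raw whole-number counts per gene with a gene length, per the file headers. The submitters' processing notes name bcl2fastq and mm10; no aligner, counter, annotation or strand setting is given in the sources used here.

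LINC01133 was set against control in edgeR 4.0.16 under R 4.3.3, by the quasi-likelihood test after TMM scaling and filterByExpr (10 counts in a library of median size, in 3 libraries), with robust dispersions, on 14116 genes. A group with no read was set at a floor of 3 counts over the group, and ratios on 1 to 3 counts have exact 95% intervals. Both cover counting error only. RPKM divides TMM-scaled CPM by the deposited length in kilobases. SE is the fitted log2 fold change, without its sign, divided by the square root of the test's F statistic. Class sums had an exact permutation test, two-sided. Gene positions are from GENCODE M21 (mm10), matched by symbol for all guidance genes, and promoters from RefSeq on GRCm38.p6.

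The members and lists were chosen with earlier results of these data known. Full values are given for members called with at least a 2-fold difference and a mean of at least 1 CPM, and for the most abundant of each class; from each list up to 3 called genes in each direction, by smallest p. The fitting code was tested on simulated data. It recovered 37 of 50 genes changed 1.25-fold and 50 of 50 changed 2-fold, with 12 false calls among 13817 genes. The simulation changed few genes, none of them rare, at a common dispersion. It therefore does not cover data where 84.9% of genes are called or where a group has no read. Replicates differed beyond sampling noise (chi-square per degree of freedom 1.61 to 2.32), and each library was counted as 1 sample. That spread does not tell whether they were separate cultures. Alternatives were RLE, library size alone, upper quartile, other count filters, the replicate number as a block, each library left out, non-robust dispersions, DESeq2 1.42.0, limma voom 3.58.1, leaving out Rn45s, and an adjusted p under 0.01. Figures were drawn with matplotlib 3.10.9.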

Additional observations from a re-analysis of the deposited data

How the results depend on the processing

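Guidance genes called higher numbered 14 to 15 and those called lower 8 when each library was left out in turn. Without a count filter they numbered 18 and 9, and at 1 CPM in 3 libraries 12 and 8, because other genes are tested. Guidance genes called at least 2-fold lower numbered 6 by library size alone, against 7 by TMM. Those called at least 2-fold higher numbered 9 without control replicate 2, against 10 with all libraries. No tested guidance gene changed sign under any alternative, and Epha10 and Ephb3 alone lost a call, as given above. With library size alone, 15 Eph partners were called higher and 3 lower, and 4 Slit-Robo partners higher and 9 lower; at 1 CPM in 3 libraries 1 relative was lower, as fewer were tested. The log2 ratios of the class sums kept their sign and moved with the scaling. Under library size alone and then upper quartile scaling they were 1.13 and 0.98 for Eph A receptors (0.89 by TMM), 0.64 and 0.50 for Eph B receptors (0.40), -0.13 and -0.27 for ephrin A ligands (-0.37), 0.98 and 0.84 for ephrin B ligands (0.74), and -0.30 and -0.45 for netrin receptors (-0.55). For netrin ligands the ratio was -2.41 by library size alone (-2.65 by TMM). With the replicate number as a block, 15 guidance genes were higher and 8 lower, as without it; deviations of same-numbered libraries from their group means correlated at -0.0243 to -0.0136 across genes, no library correlated best with its own number, and the numbers were not taken to pair the samples. Genes under the count minimum were not tested, which limits what the depth can show of the rare Ephs, Robos and Unc5 receptors.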
